A study of Gallus gallus with 6 samples.

Results

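The nuclear genes for the mitochondrial respiratory chain and the mitochondrial ribosome were followed in chicken blood leukocytes. Members were taken by gene symbol: genes whose probe accession led to a symbol beginning with NDUF, SDH, UQCR, ATP5, MRPS, MRPL or COX4 to COX8, with genes on the Z or W chromosome set aside. The gene table used for naming held 160 such genes, 11 of them on Z or W and 149 elsewhere. A probe was found for 72 of the 160, and 67 of those lay on other chromosomes than Z and W. All 67 passed the filter on dim probes and were well above background on all 6 arrays, and they form the gene set described here. They are 67 of the 4859 named genes and of the 29509 features tested. The set holds 33 respiratory chain genes and 34 mitochondrial ribosome genes, spread over 23 chromosomes.

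The samples were 3 labelled male and 3 labelled female, each a total RNA labelled with Cy3 on 1 array. The leukocytes came from wing-vein blood and were collected where the cell layer settles in a Ficoll-Paque gradient. The chickens were 1 to 2 months old per the series' design text, which sets out to compare the sexes in leukocytes. The series title speaks of transgenic and non-transgenic chickens, but the labels of these 6 samples give no transgene, strain or treatment. The labels number the samples without saying whether each came from a separate bird, so p-values measure only the spread between these samples. All 3 libraries labelled male lay on 1 slide and all 3 labelled female on another, and thus label cannot be told apart from slide. In a mixture of blood cells, fewer cells of a type and less RNA per cell cannot be told apart either.

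The respiratory chain passes electrons from NADH and succinate to oxygen through complexes I to IV of the inner mitochondrial membrane, and the proton gradient that this builds drives ATP synthase, complex V. Most subunits are encoded in the nucleus, made in the cytosol and imported, while a few core subunits are encoded by mitochondrial DNA. The mitochondrial ribosome, built from mitochondrial rRNA and nuclear-encoded proteins, translates those few core subunits. Resting lymphocytes rely largely on oxidative phosphorylation, and activated lymphocytes enlarge both this system and glycolysis.

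Each array had 79.0% to 83.1% of its 43803 non-control spots well above background and none saturated, and the number of arrays limits the precision. Markers of blood cells were looked at first. PTPRC, which encodes the leukocyte surface phosphatase CD45, was measured on all 6 arrays, as were CD3D of T cells and CD79B of B cells. TUBB1, a tubulin of thrombocytes, and hemoglobin genes were measured on all 6 arrays too. In log2 against the array's 75th percentile, PTPRC read 0.92 to 1.69, TUBB1 6.62 to 7.04 and the hemoglobin gene HBA1 7.31 to 8.30. With 79.0% to 83.1% of spots well above background, being measured does not tell how much of each cell type was present. The sex labels were checked with HINTW, a gene of the W chromosome, which in birds only females carry. The libraries labelled male 1, 2 and 3 had HINTW readings of 4.58, 4.48 and 6.99, while those labelled female 1, 2 and 3 had 6.61, 6.47 and 4.65. These and all levels below are log2 values set against the 75th percentile of the array. The library labelled male 3 thus read with those labelled female 1 and 2, and the library labelled female 3 with those labelled male 1 and 2. The counts and medians of the members, of each class and of the lists are therefore given with all 6 libraries and again without the libraries labelled male 3 and female 3. The second setting was chosen after the data had been seen and leaves 2 libraries against 2.

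The probes reached the complexes unevenly. They covered 15 of 35 complex I genes and 1 of 7 complex I assembly factors outside Z and W, 3 of 4 complex II genes and 1 of 4 of its assembly factors. They covered 3 of 8 complex III, 5 of 8 complex IV and 5 of 15 complex V genes. The small ribosomal subunit was covered in 17 of 24 genes and the large one in 17 of 44. The tissue isoforms COX4I2, COX6A2, COX7A1, COX8C and COX6B2 and the gene NDUFA4L2 had no probe by this route and were not analysed here.

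Most members read slightly higher in the mean of the male-labelled libraries, and no single member passed the test. Of the 67 members, 61 had the higher mean in the libraries labelled male, which is 91.0%, against 47.5% of all features and 57.3% of named genes. The members' median difference, male minus female, was 0.20 log2, a ratio of 1.15, with an interquartile range of 0.11 to 0.27, while the median over all features was -0.01. Among 3277 features whose level lay within the members' own interquartile range, 56.4% were higher and the median difference was 0.03. By limma with Benjamini-Hochberg adjustment over all features, 0 of 67 members passed 0.05, as did 0.0% of all features, and the members' adjusted p lay between 0.948 and 0.990. At an unadjusted p under 0.05 there was 1 member, MRPL41, or 1.49%, against 3.81% of all features. In 5 members, or 7.46%, the lowest male-labelled reading lay above the highest female-labelled one, against 3.86% of all features. In 0 members did the male-labelled libraries lie wholly below, against 4.15%. No member differed at least 2-fold in all 9 pairs of 1 male and 1 female library, against 0.0847% of features.

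Without the libraries labelled male 3 and female 3 the difference was larger in the same direction. The median was then 0.33 log2, a ratio of 1.26, and 62 of 67 members, or 92.5%, were higher in the libraries labelled male. The share higher was 45.8% over all features and 56.7% over named genes. Limma again called 0 members at an adjusted p of 0.05, with a lowest adjusted p of 0.106, while 0.288% of all features passed. At an unadjusted p under 0.05 there were 24 members, or 35.8%, against 21.6% of all features. Of those 24 members 23 were higher, as were 2597 of the 6374 features at that p. In 55 members both male-labelled libraries lay above both female-labelled ones, against 25.2% of all features. Each class had as many genes higher as with all libraries, except the large ribosomal subunit with 16 of 17 in place of 15. The class medians were then 0.32 for complex I, 0.36 for complex II, 0.43 for complex III, 0.26 for complex IV and 0.36 for complex V, and 0.35 for the small and 0.28 for the large ribosomal subunit, while the median over all features was -0.04. Among single members, NDUFB1 differed by 0.53, SDHAF2 by 0.52, COX6C by 0.52, ATP5S by 0.89, MRPS10 by 1.06, MRPL3 by 0.93 and MRPL41 by 0.58. SDHA differed by 0.07, against 0.13 with all libraries, and MRPS16 and MRPL20 by -0.01 and -0.02. MRPL15 and MRPS18A turned direction, at 0.05 each, against -0.36 and -0.04 with all libraries. MRPS16 turned as well, from 0.011 with all libraries to -0.0085.

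**Figure D1:**
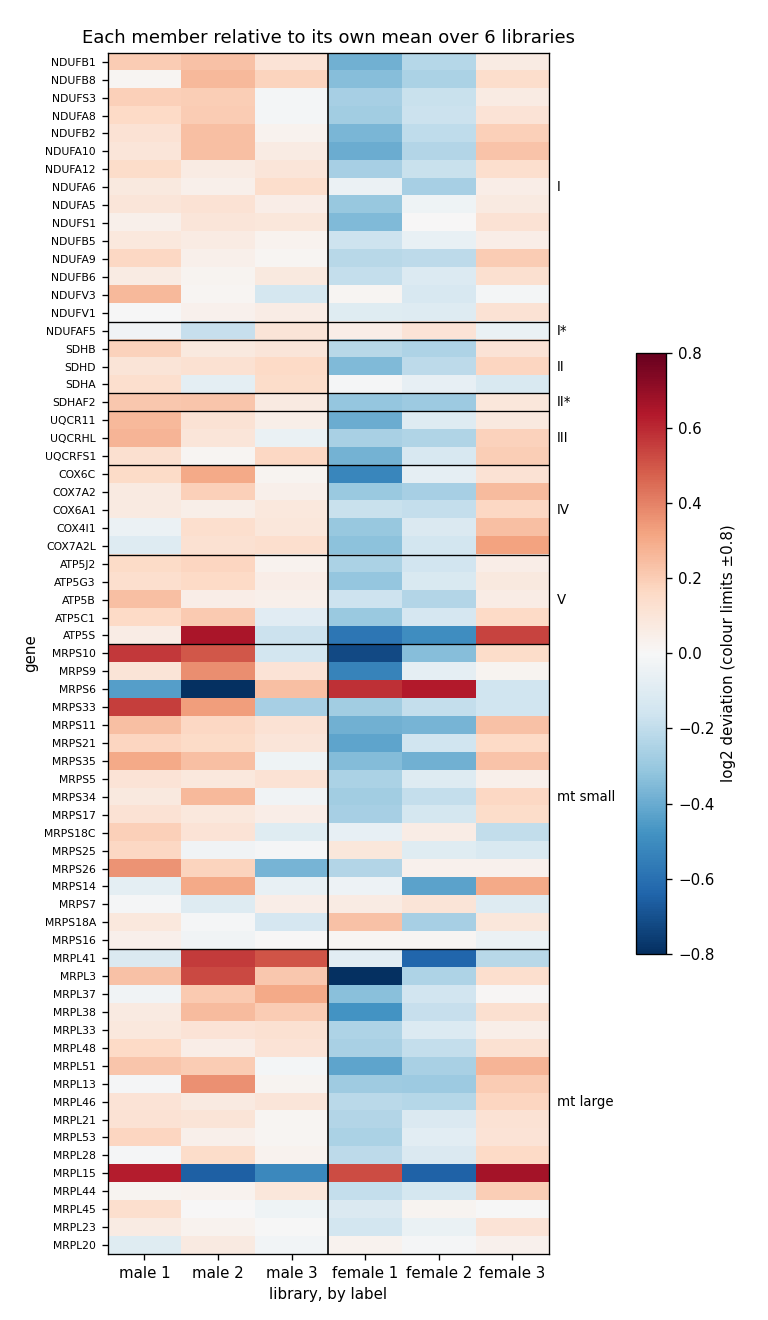
Each row is 1 of the 67 members and each column 1 library, with the colour giving the log2 deviation from that gene's mean over the 6 libraries, on a scale limited to ±0.8. Rows run by complex and ribosomal subunit, with assembly factors starred, and the columns labelled female 1 and female 2 are blue in most rows while the other 4 are mostly red.

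The libraries did not fall apart by label alone. For the libraries labelled male 1, 2 and 3 the members deviated from their own means by 0.12, 0.12 and 0.04 on average, while for those labelled female 1, 2 and 3 they deviated by -0.23, -0.16 and 0.11. Readings below a gene's own mean were found for 12, 8 and 20 of 67 members in the libraries labelled male (17.9%, 11.9% and 29.9%). In those labelled female they were found for 58, 59 and 11 (86.6%, 88.1% and 16.4%). Over all features the shares were 53.0%, 51.6% and 48.1% under the male label and 46.2%, 46.8% and 53.2% under the female label. In female 1 and female 2 the share was 56.6% each over named genes. Over features within the members' interquartile level it was 55.2% and 55.9% in these libraries. The library labelled female 1 held the lowest reading of 45 members (67.2%) and the library labelled female 2 that of 11 (16.4%). Over all features these shares were 19.9% and 14.1%, and over features within the members' interquartile level 29.3% and 17.0%. The lowest reading of the remaining members lay in the libraries labelled male 1 for 1, male 2 for 4, male 3 for 2 and female 3 for 4. In 51 of 67 members, or 76.1%, the other 4 libraries all read above the libraries labelled female 1 and female 2, as they did in 16.0% of all features. This arrangement was noticed in the values and is given as a description. It sets the library labelled male 3 above female 1 and 2 in most members, while for HINTW male 3 read with those libraries. The library labelled male 3 read above both of them in 53 members, or 79.1%, against 37.8% of all features. The library labelled female 3 did so in 55 members, or 82.1%, against 37.3%. Male 3 also lay below the mean of male 1 and male 2 in 45 members, or 67.2%, against 47.7% of all features, so it stood between the others and female 1 and 2.

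**Figure D2:**
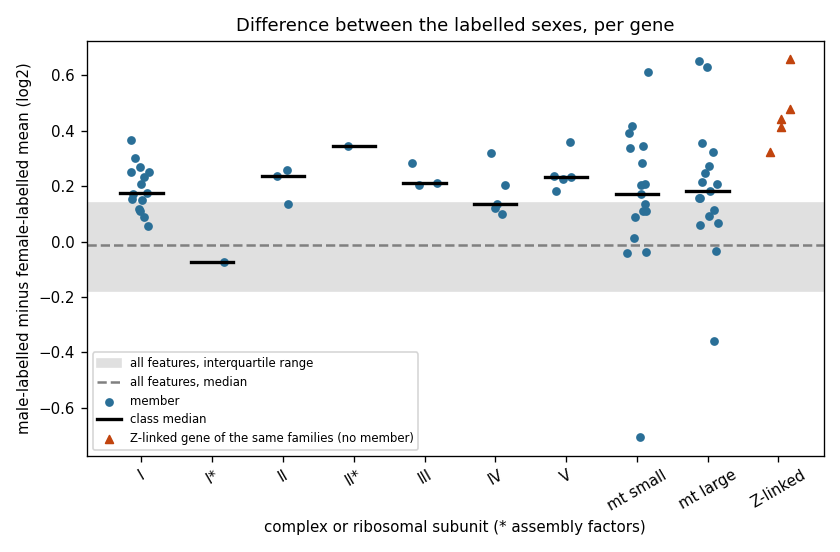
Points give the male-labelled minus the female-labelled mean (log2, n = 3 libraries each) for each member by complex or ribosomal subunit, with black bars at the class medians and triangles for the 5 Z-linked genes of the same families, which are no members. Grey marks the median (-0.01) and interquartile range of all features, and the medians of complexes I to V lie between 0.14 and 0.24.

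Complex I, which oxidises NADH, had 15 of 15 measured genes higher on average in the libraries labelled male, with a median difference of 0.18. NDUFB1, an accessory subunit of the membrane arm, read 4.32, 4.35 and 4.23 in the male-labelled libraries and 3.73, 3.89 and 4.18 in those labelled female. On this brightest probe the groups did not overlap, with the library labelled female 3 close below the male-labelled ones (difference 0.37, SE 0.16, limma adjusted p = 0.948). On another NDUFB1 probe the library labelled female 3 read 2.77, above 2.41, 2.49 and 2.56 under the male label. It read 3.64 on a further probe, within 3.53 to 3.68 under the male label. On the remaining probe the groups did not overlap, the lowest male-labelled reading being 2.96 and the highest female-labelled one 2.71. NDUFB8, another membrane-arm accessory subunit, read 2.96, 3.21 and 3.12 in the male-labelled libraries and 2.61, 2.70 and 3.08 in the female-labelled ones. NDUFS3, a core subunit of the matrix arm, read 3.45, 3.46 and 3.24 in the male-labelled libraries and 3.00, 3.08 and 3.33 in the female-labelled ones. In both genes the library labelled female 3 lay within the male-labelled readings. NDUFV1, the core subunit that binds NADH and FMN, varied little: it read 1.73, 1.77 and 1.79 in the male-labelled libraries and 1.64, 1.64 and 1.85 in those labelled female (SD over 6 libraries 0.09). NDUFAF5, a factor that modifies a complex I subunit during assembly, was the single complex I assembly factor measured. It read 0.75, 0.59 and 0.88 in the male-labelled libraries and 0.83, 0.89 and 0.72 in those labelled female (difference -0.07, SE 0.14), so the labels overlapped.

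Complex II, which oxidises succinate and belongs to the citric acid cycle as well, had 3 of 3 genes higher, with a median of 0.24. SDHB, its iron-sulfur subunit, read 4.19, 4.08 and 4.10 in the male-labelled libraries and 3.78, 3.76 and 4.12 in the female-labelled ones. SDHD, a membrane anchor, read 4.10, 4.12 and 4.16 in libraries labelled male and 3.64, 3.79 and 4.17 in libraries labelled female. SDHA, the flavoprotein, was flatter, at 2.35, 2.13 and 2.35 in the male-labelled libraries and 2.20, 2.14 and 2.09 in those labelled female. SDHAF2, which helps insert FAD into SDHA, read 3.39, 3.39 and 3.24 in the male-labelled libraries and 2.86, 2.88 and 3.26 in the female-labelled ones (difference 0.34, SE 0.16, limma adjusted p = 0.948). For SDHB, SDHD and SDHAF2 alike, the libraries labelled female 1 and 2 were the low ones.

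In complex III, which passes electrons from ubiquinol to cytochrome c, 3 of 3 genes were higher with a median of 0.21. UQCR11, a small accessory subunit, read 2.46, 2.31 and 2.24 in the male-labelled libraries and 1.80, 2.09 and 2.27 in those labelled female. UQCRFS1, the Rieske iron-sulfur protein, read 4.50, 4.39 and 4.54 in male-labelled libraries and 4.0, 4.25 and 4.58 in female-labelled ones. UQCRHL, named as like the complex III hinge protein, differed by 0.21 (SE 0.18). In these genes the library labelled female 3 reached the male-labelled readings.

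Complex IV, cytochrome c oxidase, had 5 of 5 genes higher with a median of 0.14, all of them nuclear accessory subunits or, for COX7A2L, a factor that joins complexes into supercomplexes. COX6C read 5.20, 5.35 and 5.07 in the male-labelled libraries and 4.52, 4.98 and 5.16 in those labelled female (difference 0.32, SE 0.20). COX7A2 differed by 0.20 (SE 0.18) and COX6A1 by 0.14 (SE 0.15). On another COX7A2 probe the difference was -0.21, so the probes of that gene disagreed. In 4 of the 5 complex IV genes, COX7A2, COX6A1, COX4I1 and COX7A2L, the highest reading lay in the library labelled female 3.

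Complex V, ATP synthase, had 5 of 5 genes higher with a median of 0.23. ATP5G3, which makes the rotating c ring, read 5.64, 5.66 and 5.56 in the male-labelled libraries and 5.20, 5.38 and 5.58 in those labelled female (difference 0.23, SE 0.14). ATP5B, the catalytic beta subunit, read 4.30, 4.11 and 4.09 in male-labelled libraries and 3.89, 3.82 and 4.12 in female-labelled ones. ATP5J2, the f subunit of the membrane part, differed by 0.23 (SE 0.14). ATP5S, known in mammals as a coupling factor, spread widest in the complex: it read -1.25, -0.66 and -1.48 in the male-labelled libraries and -1.89, -1.81 and -0.77 in those labelled female, and the labels overlapped.

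**Figure D3:**
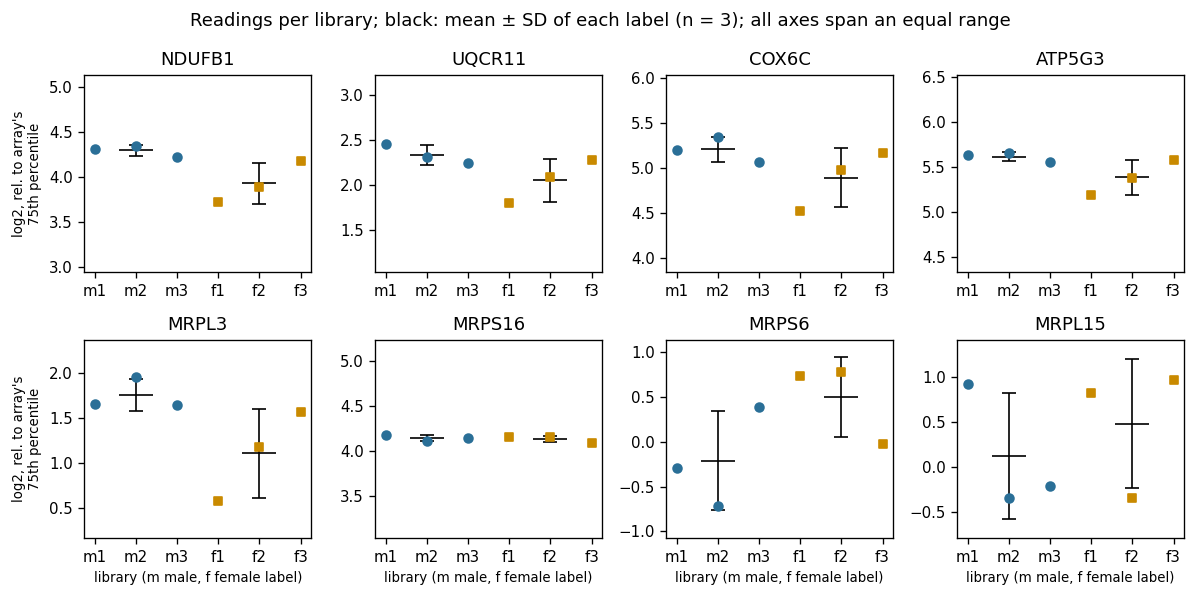
Readings of 8 members in each library (log2, set against the 75th percentile of each array), with circles for libraries labelled male, squares for those labelled female and black bars for mean ± SD (n = 3 each); all panels span the same number of log2 units. NDUFB1 and MRPL3 show no overlap of labels, MRPS16 is flat at 4.09 to 4.18, and MRPS6 and MRPL15 have the lowest differences with all libraries, MRPL15 turning to 0.05 without those labelled male 3 and female 3.

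In the small ribosomal subunit, 14 of 17 genes read higher on average in the libraries labelled male, with a median of 0.17. MRPS10, a counterpart of a bacterial ribosomal protein, read 2.52, 2.46 and 1.81 in the male-labelled libraries and 1.23, 1.62 and 2.10 in those labelled female (difference 0.61, SE 0.29, limma adjusted p = 0.948). Its library labelled male 3 lay below the library labelled female 3, so the labels overlapped. MRPS9 read 1.22, 1.49 and 1.23 in male-labelled libraries and 0.58, 1.04 and 1.14 in female-labelled ones. MRPS5 read 1.73, 1.70 and 1.73 in male-labelled libraries and 1.36, 1.52 and 1.66 in female-labelled ones. Neither gene overlapped between the labels on these brightest probes. On the other MRPS9 probe the labels did not overlap either. The other MRPS5 probe did overlap, at 1.14, 1.04 and 1.08 in male-labelled libraries and 0.90, 0.91 and 1.24 in female-labelled ones.

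MRPS6 had the lowest difference of all members. It read -0.30, -0.72 and 0.38 in the male-labelled libraries and 0.73, 0.77 and -0.02 in those labelled female (difference -0.70, SE 0.35, limma adjusted p = 0.948). The libraries labelled male 3 and female 3 each lay nearer to the other label, and without them the difference was -1.26, with an adjusted p of 0.106. MRPS7 and MRPS18A had differences of -0.04 each. MRPS18A belongs to the large subunit in mammalian structures despite its symbol. MRPS16 was the steadiest member, at 4.18, 4.11 and 4.14 in male-labelled libraries and 4.15, 4.15 and 4.09 in female-labelled ones (SD over 6 libraries 0.03).

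In the large ribosomal subunit, 15 of 17 genes were higher with a median of 0.18. MRPL3 had the largest difference of all members: it read 1.66, 1.96 and 1.64 in the male-labelled libraries and 0.57, 1.18 and 1.56 in those labelled female (difference 0.65, SE 0.27, limma adjusted p = 0.948). The readings did not overlap, and those labelled female were spread over about 1 log2 unit. MRPL41, a protein with no bacterial counterpart, read 2.69, 3.37 and 3.31 in the male-labelled libraries and 2.73, 2.17 and 2.58 in those labelled female (difference 0.63, SE 0.25, limma adjusted p = 0.948). Its library labelled male 1 lay among the female-labelled readings. MRPL37 read 0.29, 0.52 and 0.62 in male-labelled libraries and -0.02, 0.16 and 0.32 in female-labelled ones, with a small overlap. MRPL33 was the fifth member without overlap between labels on the brightest probe, with a difference of 0.21. On its other probe the labels overlapped, since the library labelled male 2 read 1.47 and the library labelled female 3 read 1.49.

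MRPL15 had the widest spread, with an SD of 0.67 over the 6 libraries. It read 0.93, -0.35 and -0.21 in the male-labelled libraries and 0.82, -0.35 and 0.97 in those labelled female. Libraries of both labels were thus found at both levels, and the differences on its other probes were 0.12 and 0.09, against -0.36 on the brightest. Without the libraries labelled male 3 and female 3 the brightest probe's difference was 0.05, so its direction rests on those libraries. MRPL20, and MRPL45, a protein that binds the inner membrane, were steady, with SDs of 0.06 and 0.08. Over all members the median SD was 0.19, against 0.26 for all features and 0.20 for features of like brightness.

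Of the 47 members with more than 1 probe, 39 had all probes higher in the male-labelled mean, 1 had all lower and 7 had probes of both signs. The median range of the differences between a gene's probes was 0.07 log2.

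The 5 genes of the same families on Z, which males carry in 2 copies, moved far more between libraries than the members did. They are NDUFAF2, a complex I assembly factor, ATP5I, the ATP synthase e subunit, ATP5F1AZ, the ATP synthase alpha subunit, MRPS30 and MRPL50. The libraries labelled male 1, 2 and 3 had Z-linked mean deviations of 0.56, 0.50 and -0.37, while those labelled female 1, 2 and 3 had -0.70, -0.57 and 0.58. The library labelled male 3 was thus low and the library labelled female 3 high for the Z-linked genes, the reverse of HINTW. ATP5I read 5.57, 5.73 and 4.69 in the male-labelled libraries and 4.0, 4.28 and 5.73 in those labelled female (difference 0.66, SE 0.51). ATP5F1AZ read 4.88, 4.94 and 4.13 in male-labelled libraries and 3.80, 3.99 and 4.84 in female-labelled ones (difference 0.44, SE 0.35). Its partner on W was not analysed here, and cross-hybridisation between the partners was not tested.

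The median difference of the 5 Z-linked genes was 0.44 with all libraries and 1.06 without the libraries labelled male 3 and female 3, with limma adjusted p between 0.086 and 0.129. Those 2 libraries were left out for their HINTW readings, and in them the Z-linked genes ran the reverse of HINTW. The larger difference without them thus follows from that choice and is no separate result. Within the library labelled male 3, the Z-linked mean deviation was 0.40 below that of the members, and within the library labelled female 3 it was 0.47 above.

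**Figure D4:**
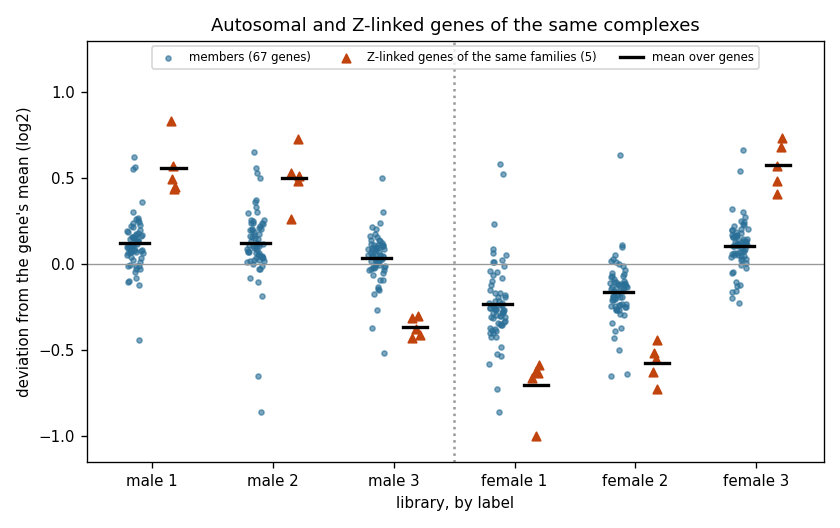
Deviation of each gene from its own mean over the 6 libraries (log2), for the 67 members (dots) and the 5 Z-linked genes of the same families (triangles), with a black bar at each mean. The triangles lie near -0.37 in the library labelled male 3, where the members average 0.04, and near 0.58 in the library labelled female 3, where the members average 0.11.

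Other mitochondrial pathways, and glycolysis, were read from gene lists, and the mitochondrial ones mostly had small differences in the same direction. Of the lists' genes, none passed an adjusted p of 0.05 by limma. Respiratory complex assembly factors had 12 of 13 measured genes higher, with a median difference of 0.10, and electron carriers and ubiquinone synthesis had 5 of 6, with 0.16. The citric acid cycle and pyruvate dehydrogenase list had 10 of 11 higher (median 0.13), mitochondrial translation factors and tRNA synthetases 7 of 8 (0.11), and mitochondrial DNA upkeep 5 of 6 (0.11). The import and chaperone list had 7 of 9 higher (0.09). Glycolysis had 9 of 14 higher (0.08), or 64.3%, against 57.3% of all named genes. Without the libraries labelled male 3 and female 3, assembly factors had 12 of 13 higher (median 0.21), electron carriers 5 of 6 (0.12), the citric acid cycle 9 of 11 (0.27) and translation factors 6 of 8 (0.13). Mitochondrial DNA upkeep had 5 of 6 (0.25), import 7 of 9 (0.07) and glycolysis 10 of 14 (0.06), and again none of these genes passed. Of all named genes, 56.7% were higher in that setting.

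MTIF3, an initiation factor of mitochondrial translation, read 0.10, 0.23 and -0.05 in the male-labelled libraries and -0.50, -0.47 and -0.16 in those labelled female, without overlap (difference 0.47, limma adjusted p = 0.948). CYCS, cytochrome c, read 2.54, 2.53 and 2.34 in male-labelled libraries and 1.97, 2.25 and 2.27 in female-labelled ones, without overlap (difference 0.31, SE 0.14, limma adjusted p = 0.948). In the same list COQ8A, which takes part in ubiquinone synthesis, lay the other way without overlap, at 1.06, 0.96 and 0.87 in the male-labelled libraries and 1.22, 1.35 and 1.12 in the female-labelled ones (difference -0.27, SE 0.13, limma adjusted p = 0.948). Both directions were thus found among the electron carrier and ubiquinone genes, in the 2 genes picked for the smallest p of that list. Of all features, 3.86% lay wholly higher and 4.15% wholly lower under the male label.

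The assembly factors likewise held both directions in the 2 genes picked for the smallest p. COA7, a complex IV assembly factor, read 0.94, 1.0 and 1.05 in the libraries with the male label and 1.38, 1.13 and 1.25 in those with the female label, without overlap (difference -0.26, SE 0.13, limma adjusted p = 0.948). COX19, a copper-related factor for complex IV, differed by 0.22 (SE 0.13), also without overlap. In the citric acid cycle list SUCLG2, a subunit of succinyl-CoA ligase, differed by 0.28 and DLD, the dihydrolipoamide dehydrogenase of several complexes, by 0.19, and both overlapped between the labels. MTIF2, another initiation factor, differed by 0.25 (SE 0.22). MTERF3, a regulator of mitochondrial transcription, differed by 0.26 and SSBP1, the mitochondrial single-strand DNA binding protein, by 0.24. In the import list TIMM9, an intermembrane-space chaperone, differed by 0.29, and PMPCB, a subunit of the processing peptidase, by -0.24. In glycolysis LDHB, a lactate dehydrogenase subunit, differed by 0.38, and HK1, a hexokinase, by -0.21, each without overlap. AURKAIP1, a ribosomal protein named outside the MRP series, differed by 0.26. The list of nuclear regulators stood the other way, with 1 of 6 higher and a median of -0.13, or 2 of 6 and -0.15 without the libraries labelled male 3 and female 3. ESRRG, an orphan nuclear receptor, differed by -0.19 (SE 0.17). Among them NRF1, a transcription factor for respiratory chain genes, read -0.26, -0.36 and -0.21 in libraries labelled male and 0.25, 0.08 and -0.60 in those labelled female, with overlap. The coactivator gene PPARGC1A had a probe that was well above background on 0 arrays. None of the 13 mitochondrially encoded genes had a probe by this route, and they were not analysed here.

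Markers of the blood cell types were set beside the members. The list of B cell markers, with 6 of 8 higher, had mean deviations of 0.14, 0.25 and -0.01 in the male-labelled libraries and -0.40, -0.10 and 0.12 in those labelled female. All 13 measured cell cycle genes read higher on average under the male label, with mean deviations of 0.53, 0.35 and -0.18 in libraries labelled male and -0.32, -0.20 and -0.19 in those labelled female. The 4 measured cytotoxic cell genes were also all higher, with 0.75, 2.02 and -0.55 in libraries labelled male and -1.44, -0.38 and -0.40 in those labelled female. The lowest B cell, cell cycle and cytotoxic list means were thus in the library labelled female 1, which also held the lowest reading of most members. By gene, this library held the lowest reading of 7 of 8 B cell, 6 of 13 cell cycle and 3 of 4 cytotoxic genes. It did so for 19.9% of all features. In the libraries labelled male 3 and female 3 the members averaged 0.04 and 0.11 and the B cell list -0.01 and 0.12. The cell cycle and cytotoxic lists were low in both of these libraries. By list mean, T cell markers were lowest in female 1 (-0.19), monocyte markers in female 2 (-0.45), and heterophil and erythroid markers in male 2 (-2.27 and -0.62). Of the 8 measured T cell markers, though, 4 had their lowest reading in male 2 and 3 in female 1. Thrombocyte markers were highest in female 1 (0.15).

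The heterophil list, with 1 of 8 higher, ran between -2.27 and 1.70 in libraries labelled male and between -1.38 and 2.07 in those labelled female. Its median difference, -0.53, turned to 0.63 without the library labelled male 2 and to 0.50 without the library labelled female 3, so no direction is read from it. The erythroid median, -0.13, was 0.23 without male 2 and 0.04 without female 1, and the T cell median, -0.04, was above 0 without male 2, without female 2 and with median scaling. T cell markers, with 3 of 8 higher, ran from -0.03 to 0.06 in libraries labelled male and from -0.19 to 0.11 in those labelled female. The monocyte and macrophage list, with 5 of 8 higher, ran from -0.04 to 0.11 under the male label and from -0.45 to 0.45 under the female label. Thrombocyte markers, with 0 of 5 higher, ran from -0.21 to 0.04 under the male label and from -0.07 to 0.15 under the female label, and erythroid markers, with 3 of 9 higher, from -0.62 to 0.40 under the male label and from -0.15 to 0.20 under the female label. Without the libraries labelled male 3 and female 3, B cell markers had 7 of 8 higher (median difference 0.42), cell cycle genes 13 of 13 (0.79), cytotoxic genes 4 of 4 (2.33) and heterophil markers 1 of 8 (-0.64). T cell markers then had 3 of 8 higher (-0.08), monocyte and macrophage markers 6 of 8 (0.49), thrombocyte markers 2 of 5 (-0.08) and erythroid markers 2 of 9 (-0.47). Among all named genes the share higher was then 56.7%. With all libraries, the 2 genes of smallest p differed by 0.42 and 0.72 among B cell markers (POU2AF1 and TNFRSF13B), by 0.67 and 0.62 among cell cycle genes (BUB1 and CENPA) and by 1.98 each among cytotoxic genes (CCL5 and GZMA). They differed by 0.26 and -0.73 among heterophil markers (CSF3R and AvBD7), by 0.44 and -0.10 among T cell markers (CD8A and CD5) and by -0.62 and -0.38 among monocyte and macrophage markers (CD36 and MARCO). They differed by 1.77 and -1.69 among erythroid markers (XK and RHAG), TUBB1 of the thrombocyte markers differed by -0.12, and none of these passed the adjusted threshold by limma. The part of cell composition in the members' readings was not tested. Every measured marker was well above background on all 6 arrays except XK, an erythroid membrane protein, on 4 and MARCO, a macrophage receptor, on 5.

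**Figure D5:**
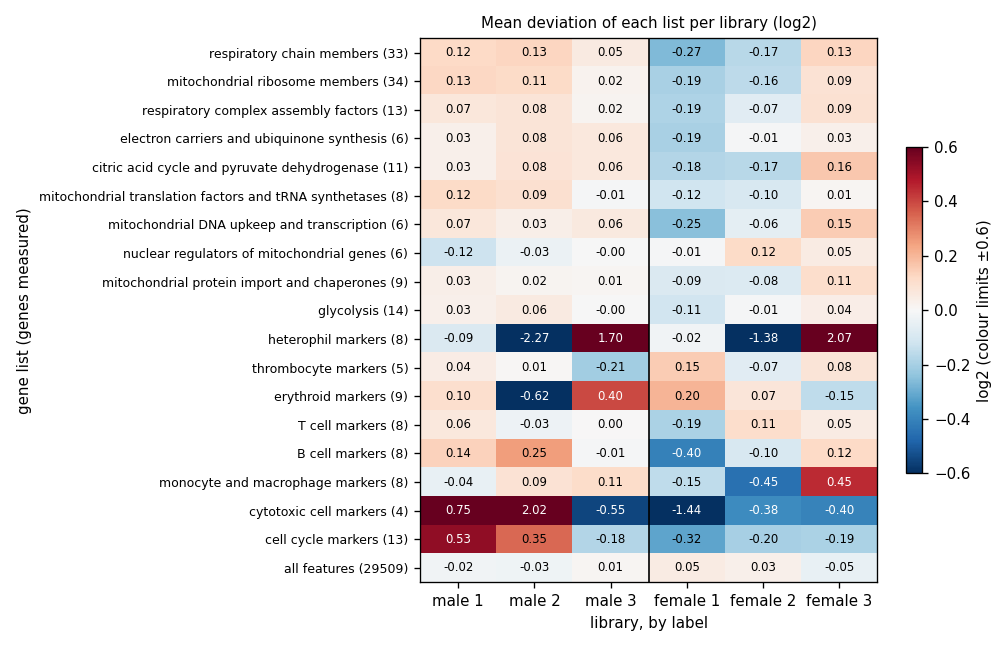
Mean log2 deviation of each gene list in each library, with the number of measured genes in brackets and colours limited to ±0.6. The respiratory chain and ribosome members share their lowest values, -0.27 and -0.19, in the library labelled female 1, and the heterophil and cytotoxic lists span far wider ranges.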

How the data were processed

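The scanner tables hold spot intensity deposited by the authors, and the file headers name Agilent Feature Extraction 11.5.1.1. Its processed intensity is background-subtracted within an array, per the file headers. The flags for well above background, saturation and outliers are also as deposited. The authors' deposited matrix equals that processed intensity multiplied by a factor of each array, 2.10 to 2.31.

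Here log2 of the processed signal less each array's 75th percentile was used. A probe had to be well above background on 3 or more of the 6 arrays (35141 of 43603 were), and a gene was represented by its brightest kept probe. Names and chromosomes came from probe accessions matched to a RefSeq gene table of another build than the array's, so no coordinates are given; 11935 probes matched 5382 genes. Male-labelled and female-labelled libraries were set against each other in limma 3.58.1 (lmFit, eBayes, two-sided, Benjamini-Hochberg over 29509 features) in R 4.3.3. The fit was also run on simulated data with independent noise, which held no effect shared by the genes of a library. Tables and figures used Python 3.11.15, pandas 2.3.3 and matplotlib 3.10.9.

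The members, lists and tests were chosen with earlier results of these data known. Named genes were, per class, the 3 with the smallest p (complex II: all), up to 4 best separated per direction, the 4 with the largest and the 4 with the smallest SD, the Z-linked genes of the families and the 2 with the smallest p per list. One gene that this rule takes is left out of the text. Other genes named, such as MRPL33, COX4I1, COX7A2L, MRPS7, MRPS18A and PPARGC1A, were chosen after their values were seen. Of 293 list genes, 253 were matched by symbol or 1 of 7 checked aliases. The rule first used took any synonym of the gene table and matched 265. It was narrowed after the list values had been seen, because some synonyms led to a different gene. Alternatives covered background, scaling, filters, probe summary, test settings, leaving out libraries and the replicate block. Normexp was run on the median spot signal, since the mean signal is not among the columns used here.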

Additional observations from a re-analysis of the deposited data

How the results depend on the processing

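Of 67 members, 59 to 64 were higher in the male-labelled mean over all alternatives run, and 0 passed the adjusted threshold by limma in any of them. The members' median difference lay between 0.13, without the library labelled female 1, and 0.33, without the libraries labelled male 3 and female 3 (0.31 without the library labelled female 3 alone). Less that of all features it was 0.37 without those 2 libraries, and the median of the Z-linked genes was 1.06. The count of members without overlap between the labels, 5 with all libraries, was 8 with median scaling (4.82% of all features), 9 with quantile normalization (4.11%) and 55 without the libraries labelled male 3 and female 3 (25.2%), against 3.86% of all features with all libraries. Leaving out 1 library at a time it ran from 5 to 51, with 9 without male 1, 21 without male 3 and 51 without female 3, while the share of all features was 7.87%, 10.4% and 17.96% in those settings, where fewer pairs have to agree. Members at an unadjusted p under 0.05 numbered 0 to 4 in the alternatives with all 6 libraries, where 3.71% to 4.08% of all features did so, and 30 without the library labelled female 3, where 17.0% did.

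A few differences changed sign, that of MRPL15 (-0.36 with all libraries) the largest of the named genes. MRPL20 was 0.012 with median scaling and 0.0027 with the mean of kept probes, and -0.077 to 0.0066 leaving out 1 library. MRPS16 was -0.026 with quantile normalization, -0.0091 with the deposited matrix values, -0.023 with the mean of kept probes and -0.0085 without the libraries labelled male 3 and female 3, and -0.0095 to 0.027 leaving out 1 library. NDUFAF5 was -0.14 to 0.00044 leaving out 1 library, and MRPL15 was 0.051 without those 2 libraries. The cause of these changes was not tested. With the replicate block the members' median stayed at 0.20 and 0 members passed. Same-numbered samples correlated at 0.01, -0.11 and -0.21 in their deviations from the mean of their label. The libraries labelled male 3 and female 3 read with the other label for HINTW, so these values cannot decide whether equal numbers mark a pair. The numbers were not taken to pair the samples.

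Under the rule first used for list symbols, 148 list genes were measured in place of 139, and the median of 0 lists changed sign. The list medians moved to 0.12 for the citric acid cycle, -0.12 for nuclear regulators, -0.07 for erythroid, 0.24 for B cell and 0.49 for cell cycle markers. The heterophil median, -0.53 with all libraries, was 0.63 without the library labelled male 2 and 0.50 without female 3.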
